A study of Homo sapiens with 8 samples.

Results

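ACTN2, NEBL, LDB3, CSRP3, TCAP, MYOZ2, MYPN, XIRP1, NEXN and FLNC encode proteins of the Z-disc, the structure that borders each sarcomere of heart and skeletal muscle. Their loci were followed through cardiac differentiation by ATAC-seq, which marks accessible DNA by the insertion of sequencing adapters by the Tn5 transposase. The genes were named by their role, with earlier results of these data known, and make up 10 of 19970 protein-coding genes on chromosomes 1 to 22 and X. The study itself had presented ACTN2 and NEBL as examples of genes that changed in this differentiation. A locus was the GENCODE gene span on GRCh38 with 20 kb on either side, and every peak that any of the 8 libraries had there was kept. Peaks that overlapped between libraries were merged into 184 regions of 285853 in the genome, and 114 of them, of 169530 in all, had a peak in at least 2 libraries and were tested.

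At the Z-disc, actin filaments of neighbouring sarcomeres are held together by alpha-actinin, and titin is anchored by its amino terminus. Many further proteins bind there to actin, alpha-actinin or titin, and several also carry signals of stretch to the nucleus. Mutations in many of these genes cause cardiomyopathy, and several of the proteins appear in the first sarcomeres that a cardiomyocyte builds.

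All libraries came from RUES2, an established line of human embryonic stem cells, and from 1 differentiation scheme, with 2 replicates at each of 4 stages. The hESC group (day 0) was collected a day after CHIR-99021, an inhibitor of GSK3 that activates Wnt signalling, had been added, so that every group had received it. MES cells (mesoderm, day 2) then had more CHIR-99021 in a medium of RPMI, albumin and ascorbic acid, CP cells (cardiac progenitors, day 5) were further treated with XAV-939, an inhibitor of Wnt signalling, and CM cells (cardiomyocytes, day 14) were taken on without inhibitors and then with B27. The labels do not say whether replicates were separate differentiations, so that p-values measure the spread between 2 libraries of a stage, which may be technical.

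The deposited peak lists held between 55873 peaks (CM replicate 2) and 156282 peaks (MES replicate 2), with a depth of 34290000 to 62370000 reads as computed from the background of each list. For each peak the fold of the read pileup over the local background is given, and a library with no peak in a region is given as 0. Such a 0 means that no peak passed the authors' q-value, not that the DNA was closed. Peaks within 1 kb of the start of marker genes told the stages apart for a few genes. NANOG had a fold of 4.58 to 5.83 in the hESC and MES libraries and no peak in CP or CM, and MYH6, the atrial myosin heavy chain, had a peak in CP replicate 2 and both CM libraries (4.18 to 5.19) alone. Other markers did not follow the labels, since TNNT2 had a peak in all 8 libraries, MYH7 in none, and all 5 stromal and smooth muscle markers in all 8. Of the hESC markers, SOX2 (4.42 and 4.90 in hESC, 6.01 and 6.19 in CM) and LIN28B also had a peak in all 8. POU5F1 and DPPA4 each kept a peak in 1 CM library. The cardiomyocyte marker RYR2 fell from 15.7 and 17.4 in hESC to 7.42 and 6.78 in CM. The endoderm marker AFP had its highest folds in CP (9.52 and 14.4). The share of cells with an open site and its openness per cell cannot be told apart in such bulk libraries.

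The 10 loci held 54 and 82 regions in the hESC libraries, then 65 and 84 in MES, 65 and 83 in CP, with 74 and 48 in CM. As a share of all regions of the same library, these were 0.0548% (95% Wilson interval 0.0420 to 0.0715) and 0.0541% (0.0436 to 0.0671) in hESC, and 0.0624% (0.0489 to 0.0795) and 0.0554% (0.0448 to 0.0686) in MES. The share was 0.0680% (0.0533 to 0.0866) and 0.0716% (0.0578 to 0.0888) in CP, and 0.0830% (0.0661 to 0.104) and 0.0903% (0.0681 to 0.120) in CM. Both CM libraries lay above both CP libraries, and these above all hESC and MES libraries, but neighbouring stages had overlapping intervals, which cover counting error only. CM replicate 2 had the fewest regions in the loci and the highest share, beside the shortest peak list.

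**Figure D1:**
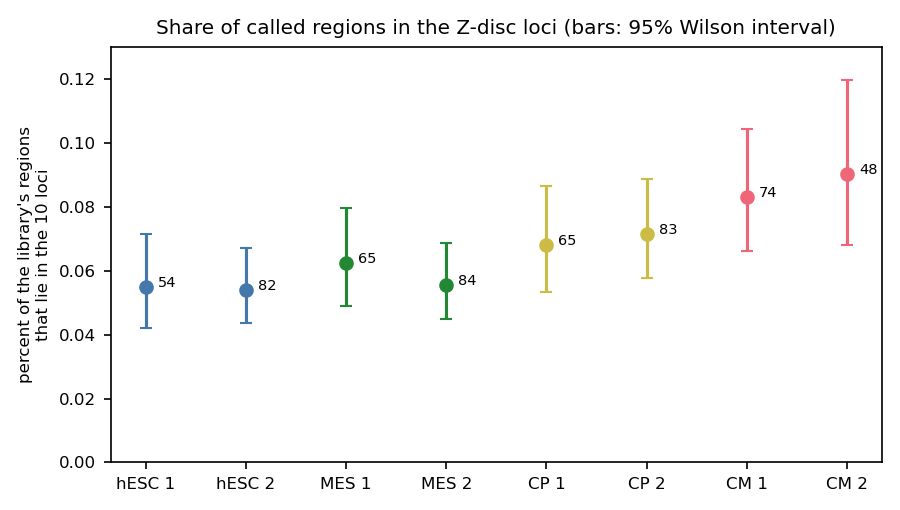
Percent of the called regions of each library that lie in the 10 Z-disc loci, with 95% Wilson intervals and the number of regions beside each point. The share runs from 0.0541% in hESC replicate 2 to 0.0903% in CM replicate 2.

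Of the 184 regions, 18 had a peak in all 8 libraries (9.78%, against 9.84% of all regions in the genome), and 70 in a single library (38%, against 40.7%). A peak in both CM libraries and neither hESC library was found in 16 regions (8.7%, against 3.15%), and the opposite in 20 (10.9%, against 13.5%). A further 16 regions had peaks in at least 2 MES or CP libraries and in no hESC or CM library (8.7%, against 7.77%). The CM regions of this kind were thus the ones whose share in the loci stood farthest above the genome. Intronic sequence held 9 of these 16 regions and the canonical start site held 3, whereas 6 of the 18 regions open in all libraries lay over the start of another gene and 5 in introns.

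Start sites had peaks in every library, from a given stage on, in no constant pattern, or in no library. Ensembl's canonical transcript was taken as the start, and 9 of the 10 starts lay under a peak in at least 1 library. Those of CSRP3, MYPN and NEBL had no peak in hESC or MES and a peak in both CM libraries, and those of ACTN2 and NEXN had one throughout.

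CSRP3 encodes muscle LIM protein, which binds alpha-actinin and telethonin. Its start (chr11:19201729-19202260) had a fold of 6.86 and 7.89 in the CM libraries and no peak in the other 6, with −log10 q of 22.1 and 17.3. The log2 difference between CM and hESC was 2.88 ± 0.20 (SE, n = 2 per stage, with log2 fold 0 for a library with no peak). Its size depends on the value given to a library with no peak, which the SE does not cover, and was 2.07 in the lowest alternative setting. The same holds for the other regions with no peak in a whole stage. A region with peaks in the 2 libraries of 1 stage alone entered the test only through that stage and had to differ, so that for such regions the values are given as a description, with no p. Of the 114 regions tested, 17 were of this kind (14.9%, against 12.7% in the genome). CSRP3 had only 6 regions in its locus, and this was the one region of them to have a peak in both CM libraries.

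MYPN encodes myopalladin, which links alpha-actinin with nebulin family proteins. At its start (chr10:68109276-68109668) the fold was 5.74 and 6.22 in CM and there was no peak in the 6 earlier libraries. The log2 difference from hESC was 2.58 ± 0.18. Another annotated start of MYPN, 21.6 kb upstream (chr10:68087711-68088037), went the other way, with 4.60 and 6.23 in hESC, then 6.10 and 3.85 in MES, 5.77 and 0 in CP, with 0 in both CM libraries, which did not pass the limma test, corrected by Benjamini-Hochberg over all 169530 regions (−2.42 ± 0.86, adjusted p = 0.133).

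NEBL encodes nebulette, a small cardiac relative of nebulin that binds actin. Its canonical start (chr10:20897199-20897475) lies within the span of longer annotated transcripts and had no peak in hESC or MES, 4.33 and 6.64 in CP, with 5.28 and 6.63 in CM. The difference was past the threshold in CM against hESC (log2 2.56 ± 0.29, adjusted p = 0.0024) and in CP against MES (adjusted p = 0.00479). The starts of the longer transcripts were open throughout. The one 277 kb upstream, which NEBL-AS1 shares (chr10:21173411-21174861), had folds of 5.02 to 6.40 over the 8 libraries (0.24 ± 0.12, adjusted p = 0.249), and the one 396 kb upstream (chr10:21292769-21293258) had 4.41 to 7.11 (0.17 ± 0.27, adjusted p = 0.733).

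The sequence next to 4 starts with no peak in hESC or MES is shown because peaks lay there in both CM libraries (MYPN and NEBL) or in CM replicate 1 alone (MYOZ2 and XIRP1). Each stretch is from GRCh38, read 5′ to 3′ on the strand of the gene, and capitals mark words of known cardiac factors on either strand. They were the GATA word (AGATAA or AGATAG, also with T as its first letter), the NKX word (TNAAGTG), the TEAD word (GGAATG), the MEF2 box and the CArG box of SRF, and none overlaps another in the stretches shown. MYPN (chr10:68109338-68109487, plus strand), NEBL (chr10:20897312-20897461, minus), MYOZ2 (chr4:119135682-119135831, plus) and XIRP1 (chr3:39192596-39192745, minus) are given as the 150 bases before the canonical start. These stretches were chosen after the values were seen.
MYPN: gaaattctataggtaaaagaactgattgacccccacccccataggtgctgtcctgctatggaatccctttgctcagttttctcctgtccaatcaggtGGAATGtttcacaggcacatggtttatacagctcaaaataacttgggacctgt
NEBL: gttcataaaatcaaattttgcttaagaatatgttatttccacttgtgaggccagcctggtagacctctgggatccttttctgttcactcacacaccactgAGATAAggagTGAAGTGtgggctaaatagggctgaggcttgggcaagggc
MYOZ2: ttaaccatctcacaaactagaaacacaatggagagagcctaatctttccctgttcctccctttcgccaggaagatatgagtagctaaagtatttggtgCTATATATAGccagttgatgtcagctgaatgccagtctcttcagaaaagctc
XIRP1: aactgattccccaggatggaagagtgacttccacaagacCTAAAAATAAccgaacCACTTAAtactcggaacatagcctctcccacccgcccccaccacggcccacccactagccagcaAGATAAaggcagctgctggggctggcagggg
GATA words are in NEBL and XIRP1, NKX words in NEBL and XIRP1, a TEAD word in MYPN, and MEF2 boxes in MYOZ2 and XIRP1. A match describes the letters only.

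MYOZ2, which encodes calsarcin-1, a binder of calcineurin and alpha-actinin, had a peak over its start (chr4:119135611-119135969) in CM replicate 1 alone, with a fold of 6.05 and −log10 q of 18.5. XIRP1 encodes Xin, an actin-binding protein of the intercalated disc, and its start (chr3:39192465-39192687) likewise had a peak in CM replicate 1 alone (fold 2.37). Both regions were seen in 1 library and were not tested. CM replicate 1 had 92891 peaks and CM replicate 2 had 55873.

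LDB3 encodes a PDZ and LIM domain protein that binds alpha-actinin. The fold at its start (chr10:86668270-86668695) was 0 and 2.81 in hESC, then 0 in both MES libraries, 2.51 and 2.93 in CP, with 3.12 and 4.54 in CM. FLNC encodes filamin C, the muscle filamin, and had 0 and 2.25 in hESC, then 0 in both MES libraries, 2.34 and 2.33 in CP, with 2.39 and 2.24 in CM at its start (chr7:128830128-128830659). In both genes hESC replicate 2, the deeper of the hESC libraries, overlapped with the later stages. Neither difference between CM and hESC passed the test, with 1.17 ± 0.54 (adjusted p = 0.241) for LDB3 and 0.62 ± 0.41 (adjusted p = 0.433) for FLNC.

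ACTN2 encodes alpha-actinin-2, the cross-linker of actin in the Z-disc. Its start (chr1:236685911-236687197) had a fold of 9.22 and 8.49 in hESC, then 8.61 and 8.98 in MES, 8.50 and 8.17 in CP, with 6.99 and 7.26 in CM. CM lay below all other libraries, by 0.31 ± 0.07 on the log2 scale (adjusted p = 0.0352), a fall that was not past the threshold under 12 of 15 alternative settings. NEXN encodes nexilin, an actin-binding protein of the Z-disc, and its start (chr1:77888100-77889559), shared with NEXN-AS1, had folds of 5.60 and 7.13 in hESC, then 6.53 and 6.74 in MES, 6.67 and 7.16 in CP, with 6.44 and 7.54 in CM, with no order by stage (0.14 ± 0.15, adjusted p = 0.566). TCAP encodes telethonin, the cap of the amino terminus of titin, and no library had a peak over its start.

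CM was then compared with hESC over all regions of the loci. Among the 114 tested, 11 were higher in CM (9.65%, against 3.37% of all regions in the genome) and 11 were lower (9.65%, against 13.9%). The median log2 difference was 0 over these 114 and −0.68 over all 169530. With peak lists cut to the length of the shortest, 18 of 68 regions were higher (26.5%, against 9.57% in the genome) and 4 lower (5.88%, against 13.4%). How many of these 18 had peaks in the CM libraries alone was not counted. With the full lists, 6 of the 11 higher regions had peaks in the CM libraries alone (54.5%, against 52.5% of the higher regions in the genome). Of the 11 lower ones, 3 had peaks in the hESC libraries alone (27.3%, against 36.4%). The number of higher regions was 5 without CM replicate 1 and 4 without CM replicate 2, where regions that only the CM libraries had are not tested, and the number of lower regions was 4 without hESC replicate 1, 6 without hESC replicate 2 and 18 with either CP library left out. Libraries with no peak all take the same value, so that p-values of regions open in 1 stage alone rest on the spread pooled over regions. Other regions with no peak in whole stages, such as the NEBL start, show no spread in those stages. Their p-values rest on the pooled spread in part and do not measure the spread between libraries there.

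NEBL, with a span of 513 kb the longest of the 10 genes, held 33 of the 114 regions tested. It gave 4 of the 11 higher regions, and they included the largest differences. In an intron 181 kb upstream of the canonical start (chr10:21077702-21078111) the fold was 0 in the hESC and MES libraries, 5.08 and 12.1 in CP, with 9.13 and 10.2 in CM. This region had the highest mean −log10 q of the locus in CM (38.7) and a log2 difference from hESC of 3.27 ± 0.43 (adjusted p = 0.00471). At 26.5 kb upstream (chr10:20923633-20924040) the fold was 0 in hESC and MES, 5.63 and 12.0 in CP, with 6.53 and 9.47 in CM (2.97 ± 0.42, adjusted p = 0.00606, lost without hESC replicate 2), and 66.9 kb upstream (chr10:20963708-20964323) it was 4.43 and 4.50 in CM and 0 in the other 6 libraries (2.16 ± 0.18). CP and CM thus shared 3 of the 4 NEBL regions, the start among them, and the remaining one was open in CM alone.

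ACTN2 had 2 intronic regions with a peak in CM alone. They lay 40.6 kb (chr1:236726836-236727169) and 13 kb (chr1:236699329-236699712) into the gene. The first had a fold of 4.49 and 4.17 in CM (2.11 ± 0.18) and the second 3.97 and 4.63 (2.10 ± 0.19). Both were weak peaks, with −log10 q of 8.24 and 4.64 in the first and 7.78 and 6.88 in the second. The CSRP3 start had 22.1 and 17.3. A further one, 19.5 kb into the gene (chr1:236705830-236706109), had 5.95 in CP replicate 2, with 3.87 and 3.83 in CM, and did not pass the test (1.94 ± 0.84, adjusted p = 0.204).

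XIRP1 had its rise in an intron, 1.87 kb after the start (chr3:39190480-39191139). The fold there was 0 in hESC and MES, 3.30 and 5.93 in CP, with 4.24 and 5.57 in CM (2.28 ± 0.35, adjusted p = 0.00838), and the call was lost with either hESC library left out (adjusted p = 0.0686 and 0.0680), without CM replicate 2 (0.0675) and where peaks had to cover 50% of the region (0.159). TCAP, without a peak at its own start, had 2 regions that were higher downstream of it. At 12.6 kb (chr17:39677769-39678077) the fold was 3.54 and 3.64 in CM and 0 in the earlier libraries (1.85 ± 0.19). At 9.79 kb (chr17:39674877-39675359) it was 0 in hESC, then 2.88 and 3.59 in MES, 2.76 and 3.98 in CP, with 3.31 and 2.72 in CM (1.59 ± 0.29, adjusted p = 0.0154, lost under 7 of 15 alternatives). The TCAP window also holds STARD3, PNMT and PGAP3, and the regions cannot be assigned to one of these genes from ATAC-seq.

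Distal sequence open in CM and not in hESC is shown beside sequence open in every library. The regions with the highest mean −log10 q in CM were taken for NEBL (chr10:21077779-21077978, minus strand) and TCAP (chr17:39677826-39678025, plus), and those with the largest rise for ACTN2 (chr1:236726970-236727169, plus) and XIRP1 (chr3:39190625-39190824, minus), each as 200 bases around the summit, with capitals as above.
NEBL: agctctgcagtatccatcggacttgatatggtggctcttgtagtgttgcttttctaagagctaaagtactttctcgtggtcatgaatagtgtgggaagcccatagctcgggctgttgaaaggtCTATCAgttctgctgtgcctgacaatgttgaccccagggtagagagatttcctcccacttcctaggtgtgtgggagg
TCAP: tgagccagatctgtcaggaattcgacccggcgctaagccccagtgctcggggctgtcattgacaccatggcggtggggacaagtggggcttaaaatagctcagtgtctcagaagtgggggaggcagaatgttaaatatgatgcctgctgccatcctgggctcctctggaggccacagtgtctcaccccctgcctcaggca
ACTN2: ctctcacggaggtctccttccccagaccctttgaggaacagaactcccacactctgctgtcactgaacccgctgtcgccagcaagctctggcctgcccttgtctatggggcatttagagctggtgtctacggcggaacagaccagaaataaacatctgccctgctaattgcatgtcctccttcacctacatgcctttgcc
XIRP1: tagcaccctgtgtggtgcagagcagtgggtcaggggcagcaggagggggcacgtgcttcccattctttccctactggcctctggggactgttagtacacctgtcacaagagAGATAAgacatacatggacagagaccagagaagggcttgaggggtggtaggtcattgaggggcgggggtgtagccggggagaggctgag
These stretches have 49% to 59% G and C, and 2 of the 4 hold a GATA word.

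Regions open in all 8 libraries are shown next, each with the highest mean −log10 q in CM of its locus save where stated. They were the ACTN2 start (chr1:236686327-236686526, plus), NEXN, just after its start (chr1:77888864-77889063, plus), FLNC, in an intron (chr7:128832535-128832734, plus), and XIRP1, in its downstream flank (chr3:39180822-39181021, minus). In the loci of LDB3 and MYPN the regions used lay over the starts of the neighbouring genes BMPR1A (chr10:86756246-86756445, plus) and ATOH7 (chr10:68231435-68231634, plus). FLNC and MYPN are given by their next strongest region, since the strongest, over the starts of ATP6V1F and HERC4, held too much untranslated sequence.
ACTN2: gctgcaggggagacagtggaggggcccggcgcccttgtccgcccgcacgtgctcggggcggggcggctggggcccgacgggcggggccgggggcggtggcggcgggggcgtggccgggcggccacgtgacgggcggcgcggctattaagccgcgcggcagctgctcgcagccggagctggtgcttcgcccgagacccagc
NEXN: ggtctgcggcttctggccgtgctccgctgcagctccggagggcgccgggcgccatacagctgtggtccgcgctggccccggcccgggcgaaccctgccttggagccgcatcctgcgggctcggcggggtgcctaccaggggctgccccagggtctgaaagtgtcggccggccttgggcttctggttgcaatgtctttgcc
FLNC: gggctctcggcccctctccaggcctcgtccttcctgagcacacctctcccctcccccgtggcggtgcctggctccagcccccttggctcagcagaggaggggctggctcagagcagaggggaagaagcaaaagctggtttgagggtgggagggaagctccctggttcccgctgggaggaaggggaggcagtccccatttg
XIRP1: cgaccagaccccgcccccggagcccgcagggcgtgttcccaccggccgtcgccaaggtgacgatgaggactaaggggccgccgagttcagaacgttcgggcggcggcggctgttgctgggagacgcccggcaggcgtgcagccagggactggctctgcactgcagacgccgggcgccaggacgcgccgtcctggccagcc
LDB3: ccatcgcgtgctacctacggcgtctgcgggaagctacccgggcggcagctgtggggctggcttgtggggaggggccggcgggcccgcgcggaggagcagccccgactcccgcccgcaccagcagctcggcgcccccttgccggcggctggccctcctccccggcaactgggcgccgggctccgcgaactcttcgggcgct
MYPN: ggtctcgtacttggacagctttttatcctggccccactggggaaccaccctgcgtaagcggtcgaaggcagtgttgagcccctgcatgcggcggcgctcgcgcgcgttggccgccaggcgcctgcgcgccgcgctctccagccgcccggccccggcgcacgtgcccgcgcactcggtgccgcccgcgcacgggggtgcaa
These have 67% to 81% G and C and hold none of the words.

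Over 300 bases around each summit, a GATA word was found in 12 of the 16 regions of the loci that both CM libraries and no hESC library had (75%, 95% Wilson interval 50.5 to 89.8) and in 3 of the 20 of the opposite kind (15%, 5.24 to 36.0). In the genome the shares were 65.2% of 9001 regions and 33.6% of 38602, with 37.4% of all 285853. An NKX word was in 5 of the 16 (31.3%, against 24.8% of such regions in the genome and 15.4% of all), a TEAD word in 5 (31.3%, against 24.7% and 20.2%), a MEF2 box in 2 (12.5%, against 7.53% and 2.14%) and a CArG box in none (against 2.40% and 1.59%). In the 20 of the opposite kind an NKX word was in 1 (5%), a TEAD word in 6 (30%), a MEF2 box in 1 (5%) and a CArG box in none. The intervals of NKX and TEAD in the 16 (14.2 to 55.6 for each) cover their shares in all regions. The 18 regions open in all libraries had GATA words in 3 and NKX words in none, beside a median G and C content of 67%, where the 16 CM regions had 48.8%. The interval of the GATA share in the CM regions of these loci covers the share in like regions elsewhere.

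Regions that fell in CM lay in introns and flanks of 6 genes and in the ACTN2 start given above. MYPN had 3. The fold 75.3 kb into the gene (chr10:68184556-68184952) was 5.32 and 6.14 in hESC, then 6.09 and 4.25 in MES, 4.91 and 4.86 in CP, with 0 in CM (−2.52 ± 0.23, adjusted p = 0.00132). In the downstream flank (chr10:68223622-68223978) it was 4.35 and 9.97 in hESC, then 7.46 and 8.91 in MES, 6.84 and 8.13 in CP, with 0 in CM (−2.72 ± 0.41, adjusted p = 0.00798). An intronic region 44.3 kb in (chr10:68153513-68154469) kept a peak in all libraries, with 7.69 and 7.65 in hESC, then 5.91 and 6.76 in MES, 4.64 and 4.30 in CP, with 4.23 and 5.26 in CM (−0.70 ± 0.14, adjusted p = 0.0273, lost under 6 of 15 alternatives). The first and second of these lost their peak in CM, whereas the third was already as low in CP as in CM.

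Loss in CM after 3 open stages was also seen once each in ACTN2, FLNC and LDB3. At ACTN2, 73.0 kb into the gene (chr1:236759347-236759760), the fold was 4.35 and 4.98 in hESC, then 5.65 and 4.86 in MES, 4.72 and 4.88 in CP, with 0 in CM (−2.22 ± 0.18, adjusted p = 0.00118). At FLNC, 11.7 kb in (chr7:128841992-128842551), it was 5.32 and 4.71 in hESC, then 4.51 and 4.68 in MES, 3.77 and 6.07 in CP, with 0 in CM (−2.32 ± 0.27, adjusted p = 0.00265, lost where peaks had to cover 50% of the region). LDB3, 25.5 kb in (chr10:86693656-86694215), had 4.25 and 3.07 in hESC, then 3.38 and 4.30 in MES, 3.11 and 4.28 in CP, with 0 in CM (−1.85 ± 0.29, adjusted p = 0.00902), and the call was lost without hESC replicate 1, without CM replicate 2 and where a missing peak took the lowest called fold of its library. The CM lists were also the shortest, with 92891 and 55873 peaks against 99889 or more in the earlier libraries, and the part of list length in these losses was not tested region by region.

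Other regions had peaks in hESC alone or nearly so. The fold was 4.11 and 4.09 in hESC and 0 in the other 6 libraries in the downstream flank of MYOZ2 (chr4:119204249-119204585, −2.04 ± 0.18). It was 4.13 and 4.27 in hESC alone downstream of LDB3 (chr10:86742344-86742684, −2.07 ± 0.18) and 4.39 and 4.59 in hESC alone in a NEBL intron (chr10:21145697-21146159, −2.17 ± 0.18). A further NEBL intron (chr10:21161621-21162082) had 6.29 and 6.63 in hESC and 3.65 in MES replicate 2 (−2.69 ± 0.63, adjusted p = 0.0457, lost under 8 of 15 alternatives).

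Between hESC and MES, 8 of the 114 regions were higher (7.02%, against 7.04% in the genome) and 4 lower (3.51%, against 5.41%). These counts are not above the background, and 5 of the 8 had peaks in MES alone and 3 of the 4 in hESC alone. The strongest rise was a NEBL intron 80.3 kb upstream of the canonical start (chr10:20976987-20977887), with 9.85 and 11.7 in MES, 4.70 and 6.74 in CP and no peak in hESC or CM (adjusted p = 0.00143 in MES against hESC). FLNC had a like region 2.98 kb after its start (chr7:128833105-128833534), with 3.16 and 2.89 in MES and 2.53 and 2.92 in CP (adjusted p = 0.00482, lost with either hESC library left out and where a missing peak took the lowest called fold of its library). The higher count was 4 without hESC replicate 1, 5 without hESC replicate 2 and 2 with either MES library left out, and the lower count was 1 without hESC replicate 1 and 0 without hESC replicate 2.

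In 5 loci a site was open in MES alone. In NEXN (chr1:77906820-77907372, 18.6 kb into the gene) the fold was 4.97 and 6.48 in MES, in MYOZ2 (chr4:119197780-119198230, downstream) 4.07 and 4.25, and in TCAP (chr17:39676174-39676496, downstream) 3.14 and 3.78. In FLNC (chr7:128860445-128860748, downstream) it was 2.75 and 2.97, and in NEBL (chr10:21299493-21299833, upstream flank) 3.58 and 3.14. No other library had a peak in any of the 5. These regions were picked out after their values were seen.

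From MES to CP, 8 regions were higher (7.02%, against 2.2% in the genome) and 5 lower (4.39%, against 7.87%). The 5 lower ones were the sites just given, which were tested only because both MES libraries had them. Of the 8 higher ones, 5 were in NEBL, 2 in ACTN2 and 1 in XIRP1, and 3 of them had peaks in CP alone (37.5%, against 55.7% of the higher regions in the genome). These loci held 33, 13 and 10 of the 114 regions tested. Besides the start and the regions shared with CM, NEBL had an intronic site open in CP alone, 134 kb upstream of the canonical start (chr10:21031183-21031522, fold 4.27 and 5.46). A site 57.5 kb upstream (chr10:20954512-20955003) was open in hESC (3.39 and 4.98), had no peak in MES and was open again in CP (4.91 and 7.26) and CM (5.25 and 4.42), with adjusted p of 0.00464 in CP against MES, a call that was lost where peaks had to cover 50% of the region. The fall of this site from hESC to MES was lost under 6 of 15 alternatives. ACTN2 had CP sites 5.92 kb into the gene (chr1:236692219-236692549, fold 4.42 and 5.32) and in its downstream flank (chr1:236770198-236770472, 3.67 and 5.63), both with no peak in any other library. The higher count was 5 with either MES library left out or without CP replicate 2, and the lower count was 2 without MES replicate 1, 0 without MES replicate 2, 8 without CP replicate 1 and 10 without CP replicate 2.

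From CP to CM, 6 regions were higher (5.26%, against 1.93% in the genome) and 10 lower (8.77%, against 7.47%). The higher ones were the starts of CSRP3 and MYPN, 2 ACTN2 introns, 1 NEBL intron and 1 TCAP flank, all described above. All 6 had peaks in the CM libraries alone and were tested only through them, as were 91.8% of the higher regions in the genome, so that this count describes where CM alone had peaks. The lower ones were 3 regions in ACTN2, 2 each in NEBL, MYPN and FLNC and 1 in LDB3. Of these 10, 3 had peaks in CP alone (30%, against 16.4% of the lower regions in the genome). The LDB3 call was lost under 5 of 15 alternatives, and the FLNC calls at 128833105 and 128841992 under 4 and 3. The calls at 68223622 (MYPN), 236770198 (ACTN2) and 20976987 (NEBL) were lost under 2, 2 and 1. The others held under every alternative that tested them. At ACTN2, 2 sites had a peak called in CP alone and 2 in CM alone, while its start kept its peak. With lists of equal length, 13 of 68 regions were higher (19.1%, against 6.11% in the genome) and 2 lower (2.94%, against 6.52%). How many of these 13 had peaks in the CM libraries alone was not counted, so that this count is a description as well. The higher count was 0 without CM replicate 1, 1 without CM replicate 2 and 10 without CP replicate 2, and the lower count was 5 without CM replicate 2.

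**Figure D2:**
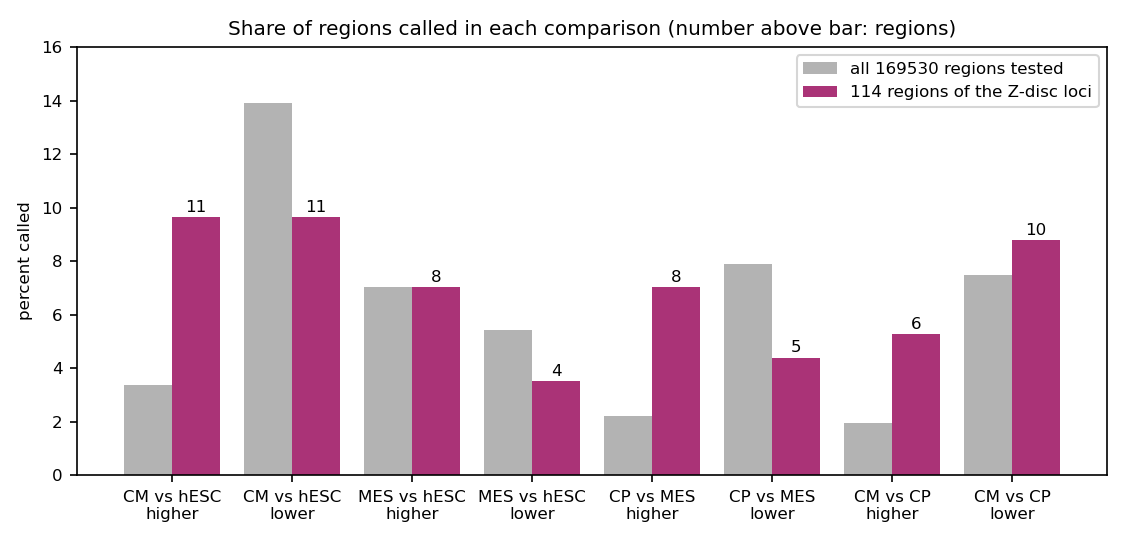
Percent of regions called (regions open in 1 stage alone included) in each comparison of stages, for all 169530 regions tested (grey) and the 114 regions of the Z-disc loci (purple, with their number above the bar). The share of higher regions in the loci is above that of the genome in CM against hESC (9.65% and 3.37%), CP against MES (7.02% and 2.2%) and CM against CP (5.26% and 1.93%), and near it in MES against hESC (7.02% and 7.04%). Regions open in 1 stage alone, which had to differ, are 6 of the 11 higher ones of the loci in CM against hESC. They are 3 of 8 in CP against MES, all 6 in CM against CP and 5 of 8 in MES against hESC.

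Folds were then summed over each locus. None of the 10 loci was past the threshold in CM against hESC, where 0.0629% of 19085 loci were higher and 6.77% lower, and 2 of the 10 were lower and 0 higher at an unadjusted p under 0.05 in limma, where 32.3% of all loci were lower and 0.409% higher. CSRP3 had summed folds of 0 and 4.63 in hESC, then 0 and 8.30 in MES, 4.06 and 4.88 in CP, with 20.9 and 7.89 in CM, with a log2 difference of 2.56 ± 1.24 on the log2(1 + sum) scale (adjusted p = 0.186). MYOZ2 had 10.4 and 25.3 in hESC, then 12.9 and 27.3 in MES, 5.56 and 14.0 in CP, with 6.05 and 0 in CM (−2.70 ± 0.93, adjusted p = 0.0936), and was called lower without CM replicate 1 (−4.11, adjusted p = 0.00647). MYPN went from 71.9 and 75.8 in hESC to 52.4 and 36.2 in CM (−0.75 ± 0.28, adjusted p = 0.108). The median over the 10 loci was −0.36, against −0.51 over all loci.

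The sign of most loci depended on scaling for the length of the lists. With each sum divided by the sum of its library, the median over all loci was 0.32 and that of the 10 loci 0.49, and 2892 loci were higher (15.2%) and 877 lower (4.6%) in the genome, where the unscaled fit gave 12 and 1292. NEBL (0.92, adjusted p = 0.000373), CSRP3 (3.39, 0.0128), LDB3 (0.81, 0.0286) and FLNC (0.78, 0.0396) were then higher and MYOZ2 (−2.32, 0.0482) lower. LDB3 and FLNC had been at −0.05 and −0.07 without scaling. The difference was above 0 for CSRP3 and below 0 for MYOZ2 on both scales, and neither passed the test without scaling.

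A list of 30 further Z-disc genes was read the same way. None of their loci was higher in CM and 1 was lower, that of XIRP2, a relative of XIRP1, with summed folds of 76.9 and 123 in hESC, then 54.6 and 80.1 in MES, 14.4 and 56.7 in CP, with 14.4 and 0 in CM (−4.65 ± 1.11, adjusted p = 0.0466). The count lower was 0 with any library but CM replicate 1 left out and 2 without CM replicate 1. The median difference of the 30 loci was −0.29, with 4 of 30 above 0, where 2 of the 10 member loci were above 0. At an unadjusted p under 0.05, 4 of the 30 were lower (CFL2, CRYAB, SYNPO2 and XIRP2) and 0 higher, against the 32.3% and 0.409% of all loci above. With scaling to the library sum, 10 of the 30 were higher and 0 lower, against 15.2% and 4.6% of all loci and a median over all loci of 0.32. The loci of MYOZ1 and SYNPO2L lie side by side and hold the same regions, so that their values are not separate.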

How the data were processed

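ATAC-seq peak lists of 8 RUES2 libraries were analysed. Per the study's methods, the authors aligned reads to hg38 (BWA 0.7.13), filtered them for primary alignments of mapping quality over 30, discarded PCR duplicates (Picard) and ran MACS2 (2.1.0) on single libraries, with a q-value cutoff of 0.01, reads shifted by 100 bp and extended to 200 bp. The deposited lists give, per peak, a fold (ratio) of pileup over local background, −log10 p and −log10 q. The authors' display score was not used. Reads per library were computed from the lowest background with an assumed genome size of 2.7 Gb.

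Overlapping peaks of all libraries were merged, and a region took the highest fold of each library, with log2 fold 0 where none was called. Regions with a peak in at least 2 libraries were fitted together in limma (3.58.1, R 4.3.3) with an intensity trend and robust variances, and p-values were adjusted by Benjamini-Hochberg over all regions, with a threshold of 0.05. For loci, log2(1 + summed fold) was fitted over all protein-coding genes with their 20 kb flanks. Positions and starts are from GENCODE 44, and sequence from GRCh38. Named regions were, per gene, the canonical start, the highest mean −log10 q in CM and in hESC and the largest called rise and fall, and further called regions were chosen after their values were seen. Sequence is shown for the strongest CM region of each gene that held at most 30 UTR bases. The members and lists were chosen with earlier results of these data known. Both fits were tested on simulated data. Alternatives changed the value, scaling, filter, flank, list length, overlap and libraries. Scripts ran under Python 3.11.15 with pandas 2.3.3, numpy 2.4.6, matplotlib 3.10.9 and scipy 1.17.1, and samtools 1.23.1. One sequence is not reported here.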

Additional observations from a re-analysis of the deposited data

How the results depend on the processing

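Of 63 calls of a region in a comparison, 36 held under every alternative that tested the region. The other 27 fell short in 1 or more, and none reversed. Calls of regions open in 1 stage alone met 12 or 13 of the 15 alternatives, since they were not tested without a library of that stage. Such regions had to differ and made up most of the 36, so that they lend no support. The calls of other regions that held were in ACTN2, MYPN and NEBL. In CM against hESC these were ACTN2 at 236759347, MYPN at 68184556 and 68223622, and NEBL at 20897199 and 21077702. In CM against CP, ACTN2 at 236759347 and MYPN at 68184556 held. NEBL at 20897199 held in CP against MES, and NEBL at 20976987 in MES against hESC. Where no peak took the lowest called fold of its library, lower regions numbered 3 (CP against MES, 5 in the report) and 6 (CM against CP, 10). With regions of 1 library kept, 3 were lower in CP against MES. With lists of equal length, CM against hESC gave 18 higher and 4 lower (11 and 11), MES against hESC 4 higher (8), CP against MES 2 lower, and CM against CP 13 higher and 2 lower (6 and 10). Where peaks had to cover 50% of a region, 2 were lower in MES against hESC (4) and 8 in CP against MES. With gene spans alone, 3 were higher and 2 lower in MES against hESC and 1 lower in CP against MES. With 50 kb flanks, 17 were lower in CM against hESC and 8 in CP against MES.

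With 1 library left out in turn, CM against hESC gave 4 to 15 higher and 4 to 18 lower, MES against hESC 2 to 9 and 0 to 5, CP against MES 5 to 10 and 0 to 10, and CM against CP 0 to 10 and 5 to 14. A stage left with 1 library is assumed to vary like the others. Regions open only in the stage that lost a library then miss the minimum of 2 libraries, and other calls were lost by their p.

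For loci, scaling to the library sum gave 4 higher and 1 lower among the 10 members, with LDB3 (0.81) and FLNC (0.78) reversed, and 10 higher and 0 lower among the other Z-disc genes. The 1 lower locus of that list became 0 with region numbers in place of folds, with gene spans alone and with lists of equal length, which gave 1 higher. Leaving out 1 library gave 0 to 1 lower members and 0 to 2 lower loci of the list.

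Replicate numbers were not used to pair the samples in the main fit. Deviations of same-numbered libraries correlated between −0.02 and 0.09 over regions and −0.20 and 0.22 over loci. Such correlations cannot show whether libraries of the same number came from the same differentiation. With the replicate block, 11 regions were higher and 9 lower in CM against hESC, the other region counts were unchanged and the lower locus of the list became 0.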
